A study of Mus musculus with 24 samples.

Results

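RNA-Seq was used to follow the transcripts of 7 genes of translesion DNA synthesis, *Polk*, *Polh*, *Poli*, *Rev1*, *Rev3l*, *Mad2l2* and *Rad18*, in mouse spleen cells before and after ionizing radiation (IR). The genes were chosen by name, as core polymerase subunits of the pathway and the ligase that directs them. Earlier results of these data were known when they were chosen. All 7 were found among the 21671 genes of every sample. The data comprised 24 samples, with cells enriched from the spleen by B220 magnetic beads (B cells) and cells left in the column flow-through (non-B cells). Mice were of the C57/Bl6 strain and 8 weeks old, either wild-type (Trp53+/+) or lacking p53 in all tissues (Trp53-/-), and were either unstressed (mock) or irradiated with 7 Gy to the whole body and analysed 4 h later. Each cell type and treatment had 4 Trp53+/+ and 2 Trp53-/- samples, and no group is labelled with a further allele or agent. The methods of the study count these samples as mice, 4 Trp53+/+ and 2 Trp53-/- per condition, so that the spread within a group is taken as that between mice. The labels do not say which B cell and non-B cell samples came from the same spleen.

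Replicative DNA polymerases stop at damaged bases. Translesion polymerases have wider active sites, insert a nucleotide opposite the damage and hand the primer back, at the cost of more errors. The switch is set off when Rad18, with its partner E2 enzyme, attaches ubiquitin to the sliding clamp PCNA. Y-family enzymes, pol kappa (*Polk*), pol eta (*Polh*), pol iota (*Poli*) and Rev1, then bind the clamp. Pol zeta, whose subunits include the catalytic Rev3l and the adaptor Mad2l2 (Rev7), extends the product. In B cells, pol eta and Rev1 also take part in the somatic hypermutation of immunoglobulin genes. p53, the product of *Trp53*, is the transcription factor through which irradiated lymphocytes induce many of their target genes, and most splenic lymphocytes are not replicating DNA.

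The libraries differed in ways that touch the results below. The depth, estimated from the steps of the lowest values, ranged from 4.74 to 10.94 M (mega) reads with a median of 8.75 M. *Cdkn1a*, a p53 target used as a check of the labels, rose from a mean of 1.08 to 89.5 RPKM (reads per kilobase of exon and per mega reads on exons) in Trp53+/+ B cells and stayed at 0.626 and 0.644 RPKM in Trp53-/- B cells. *Trp53* itself was listed at 21.59 to 25.04 RPKM in mock Trp53-/- samples and 43.4 to 49.5 RPKM in mock Trp53+/+ samples, and a value over the whole gene does not check the deleted part. The 8 B cell markers summed to 873 to 1109 RPKM in B cells and 227 to 602 RPKM in non-B cells, and the 7 T cell markers found of 8 summed to 62.4 to 166 RPKM and 309 to 626 RPKM, so that both fractions were enriched rather than pure. Between 7.01% and 51.3% of 1440 olfactory and vomeronasal receptor genes, which blood cells do not use, had reads in irradiated Trp53+/+ samples, against 5.42% to 9.31% in all mock samples and 6.88% to 13.1% in irradiated Trp53-/- samples. In such bulk samples, fewer cells of a type cannot be told apart from less RNA per cell.

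All 7 genes were expressed in every sample, with 6.43 RPKM as the lowest value, and all passed the filter of an RPKM above 1 in at least 1 Trp53+/+ sample. RPKM is per length and allows the genes to be ranked. In unstressed Trp53+/+ B cells *Rev3l* was highest at 21.7 ± 0.75 RPKM (mean ± SD, n = 4), followed by *Polh* at 18.02 ± 2.84, *Poli* at 17.5 ± 1.4, *Rev1* at 14.1 ± 0.301, *Mad2l2* at 11.8 ± 0.777, *Polk* at 9.17 ± 0.352 and *Rad18* at 8.96 ± 0.917 RPKM. The ranges of *Rev3l* and *Polh*, of *Polh* and *Poli*, and of *Polk* and *Rad18* overlapped, and the other neighbours in this order did not. In unstressed Trp53+/+ non-B cells the same genes, *Rev3l* at 21.7 ± 1.96 and *Polh* at 20.9 ± 4.59 RPKM, led the order, and *Polk* was lowest at 7.84 ± 0.415 RPKM. After IR *Polk* took the first place in Trp53+/+ cells of both types, and its range overlapped with none of the other 6 genes. In Trp53-/- cells it stayed among the lowest, last in B cells of either treatment and in mock non-B cells, and next to last, above *Rad18*, in irradiated non-B cells.

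**Figure D1:**
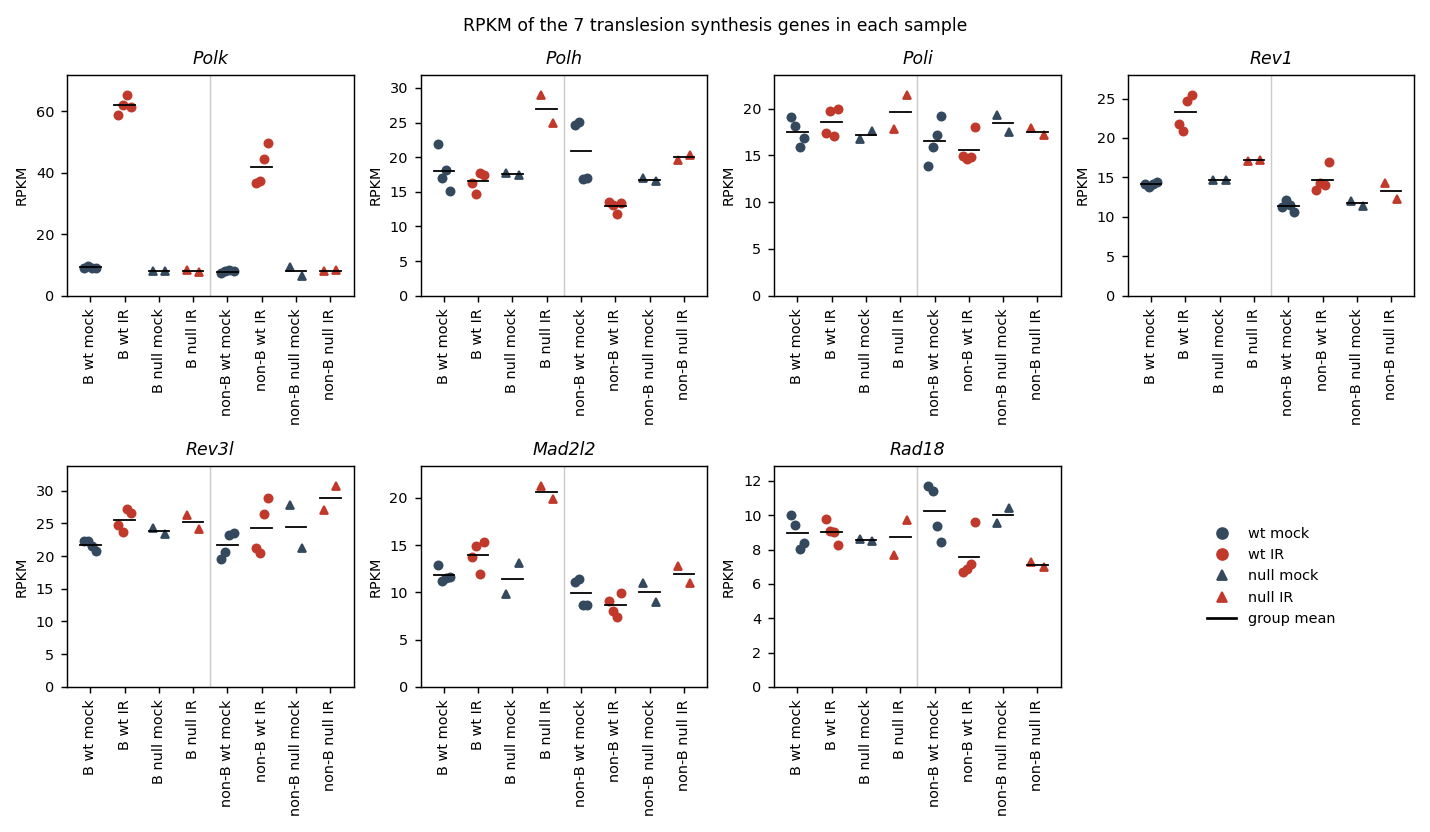
RPKM (vertical axes, each from 0) of the 7 genes in each of 24 samples, by cell type, genotype and treatment, with horizontal bars at the group means. *Polk* separates irradiated Trp53+/+ samples, at 36.7 to 65.4 RPKM, from all other samples, at 6.43 to 9.68 RPKM, while the other 6 genes stay within 6.68 to 30.7 RPKM.

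*Polk*, the polymerase that copies past bulky adducts in the minor groove and extends mismatched primers, lies at chr13:97250644-97312440 on the minus strand of mm9. Its start faces that of *Col4a3bp*, which encodes a ceramide transfer protein and is read in the opposite direction from a start 250 bases away. The stretch between the 2 starts is shown because transcription to either side of it differed after IR, with *Polk* called and *Col4a3bp* not. It spans chr13:97312441-97312689, is printed from the plus strand of mm9, 5′ to 3′ from the side of *Polk* to that of *Col4a3bp*, and is 69.9% G and C. Capitals mark a GC box, GGGCGG or its complement CCGCCC, searched on both strands, of which there was 1, and there was no CCAAT box.

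Polk to Col4a3bp: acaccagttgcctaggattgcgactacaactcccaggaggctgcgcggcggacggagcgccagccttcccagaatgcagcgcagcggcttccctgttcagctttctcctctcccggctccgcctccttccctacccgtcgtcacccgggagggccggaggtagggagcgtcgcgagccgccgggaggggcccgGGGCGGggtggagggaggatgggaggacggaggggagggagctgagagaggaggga

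*Polk* was induced by IR in Trp53+/+ cells of both types and not in Trp53-/- cells. The 4 mock samples of Trp53+/+ B cells held 8.98, 9.68, 8.90 and 9.12 RPKM of *Polk*, and the 4 irradiated samples held 58.9, 62.2, 65.4 and 61.5 RPKM. In Trp53+/+ non-B cells mock samples held 7.25, 7.90, 8.21 and 8.01 RPKM, and irradiated samples 36.7, 37.3, 44.5 and 49.5 RPKM. Every irradiated sample was thus several times above every mock sample in either cell type. In Trp53-/- cells *Polk* was at 7.94 and 7.87 RPKM in mock and 8.23 and 7.77 RPKM in irradiated B cells, and at 9.29 and 6.43 RPKM in mock and 7.93 and 8.40 RPKM in irradiated non-B cells, and these groups overlapped.

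The mean of *Polk* rose 6.76-fold in Trp53+/+ B cells, with a log2 fold change of 2.69 (SE 0.0600, adjusted p = 1.88e-11). Fold changes and p-values are those of limma on log2(RPKM + 0.5) over all genes tested, with Benjamini-Hochberg adjustment, and calls required both a log2 fold change beyond 0.58 in either direction, a ratio of 1.5, and an adjusted p under 0.05. *Polk* ranked 76th from the top of 13821 genes. In Trp53+/+ non-B cells it rose 5.36-fold, with a log2 fold change of 2.34 (SE 0.127, adjusted p = 4.36e-07), and ranked 41st of 14018 genes. The exact two-sided permutation test of 4 against 4 samples gave p = 0.0286 in each cell type, the smallest that its 70 splits allow, and 0.0667 after adjustment over 14 tests. In Trp53-/- cells the log2 fold change was 0.02 (SE 0.0848, adjusted p = 0.914) for B cells and 0.07 (SE 0.18, adjusted p = 0.897) for non-B cells. The response differed between the genotypes by 2.68 (SE 0.104, adjusted p = 1.59e-08) in B cells and by 2.27 (SE 0.220, adjusted p = 2.00e-04) in non-B cells. These calls held in every alternative tried and on leaving out any sample.

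*Col4a3bp* did not rise with *Polk*. Its mean went from 23.9 ± 1.36 to 17.6 ± 1.82 RPKM in Trp53+/+ B cells, a log2 fold change of -0.44 (adjusted p = 4.68e-04) that did not reach the fold threshold, and from 27.8 to 21.7 RPKM in Trp53-/- B cells, with -0.35 (adjusted p = 0.0215). In non-B cells its log2 fold changes were 0.01 and 0.07 in Trp53+/+ and Trp53-/- cells. The rise of *Polk* by several fold was thus not seen in the gene that starts 250 bases away.

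**Figure D2:**
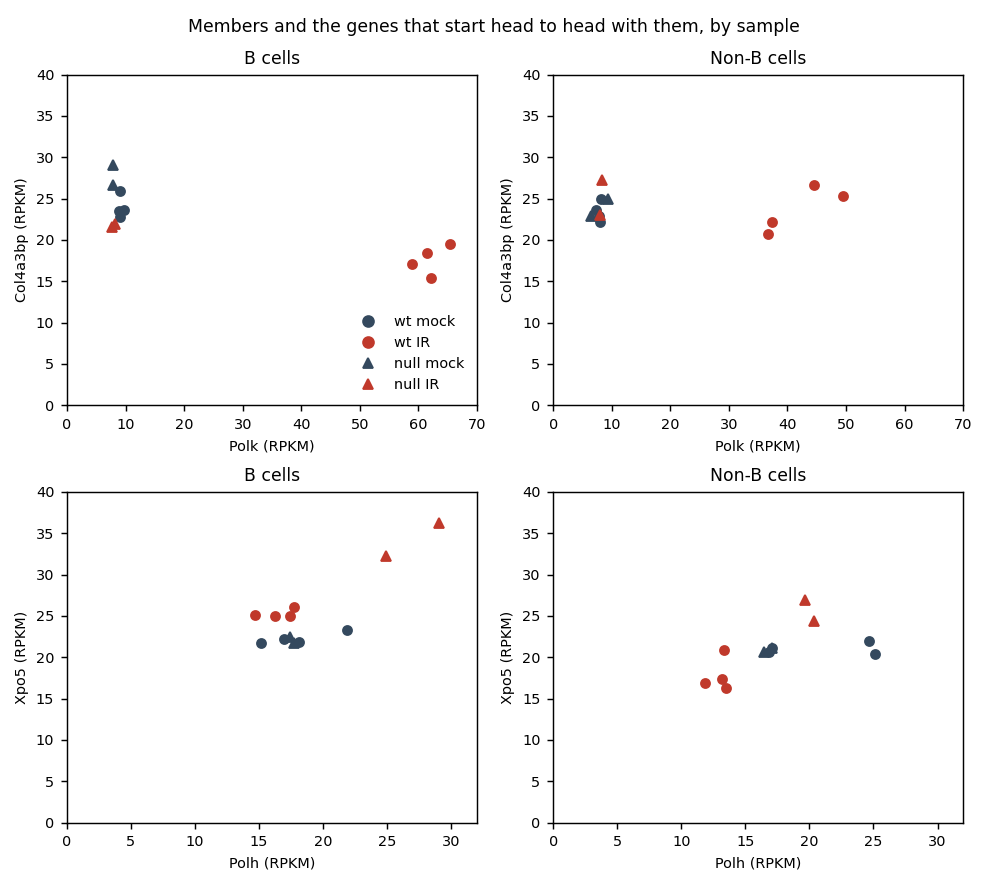
RPKM of *Polk* against *Col4a3bp* (top) and of *Polh* against *Xpo5* (bottom), whose starts face each other, in each B cell (left) and non-B cell (right) sample, with all axes from 0. *Polk* moves to 36.7 or more in irradiated Trp53+/+ samples with *Col4a3bp* between 15.4 and 26.6, whereas among B cell samples *Polh* and *Xpo5* are both highest in the 2 irradiated Trp53-/- samples.

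*Rev1*, which inserts cytosine opposite damaged bases and serves as the platform on which the other polymerases assemble, was the only other of the 7 genes called changed in irradiated Trp53+/+ B cells. The mock samples held 14.2, 13.7, 14.1 and 14.5 RPKM and the irradiated samples 21.8, 20.9, 24.7 and 25.5 RPKM, without overlap. The mean rose 1.64-fold, with a log2 fold change of 0.69 (SE 0.0703, adjusted p = 5.55e-06) and an exact permutation p of 0.0286 (0.0667 adjusted). With *Polk* this makes 2 of 7 genes called, both higher, where 24.7% of all genes tested were called in either direction and 12.5% higher. In Trp53-/- B cells *Rev1* went from 14.7 and 14.7 to 17.1 and 17.2 RPKM, a log2 fold change of 0.22 (SE 0.0994, adjusted p = 0.0988). The response differed between the genotypes by 0.47 (SE 0.122, adjusted p = 0.0186), a difference that lost its call without either mock Trp53-/- B cell sample (adjusted p of 0.0748 and 0.0719) or without replicate 1 of the irradiated ones (0.0662).

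In non-B cells *Rev1* moved less. Mock Trp53+/+ samples held 11.2, 12.2, 11.5 and 10.6 RPKM and irradiated ones 13.3, 14.2, 14.1 and 16.9 RPKM. These did not overlap, but the log2 fold change of 0.35 (SE 0.0963, adjusted p = 0.0302) was below the fold threshold. It was 0.17 (adjusted p = 0.615) in Trp53-/- non-B cells. *Rev1*, at chr1:38109632-38186507 on the minus strand of mm9, shares 1239 exon bases with *Eif5b*, a translation initiation factor on the opposite strand. The library kit did not mark the strand, so that reads from these bases cannot be assigned to either gene. *Eif5b* went from 23.8 ± 1.24 to 34.5 ± 5.93 RPKM in Trp53+/+ B cells (log2 fold change 0.51, adjusted p = 0.00122, below the fold threshold) and rose from 20.7 to 31.3 RPKM in Trp53-/- B cells (0.58, adjusted p = 0.00647, called), and its part in the *Rev1* values was not tested.

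*Rev3l*, the catalytic subunit of pol zeta at chr10:39451924-39595017, moved little. In Trp53+/+ B cells it was at 22.3, 22.2, 21.5 and 20.7 RPKM in mock and 24.8, 23.6, 27.2 and 26.6 RPKM in irradiated samples. The groups did not overlap (exact permutation p = 0.0286, 0.0667 adjusted), and the log2 fold change of 0.23 (SE 0.0612, adjusted p = 0.00759) was below the fold threshold. Its log2 fold change in Trp53-/- B cells was 0.08 (SE 0.0865, adjusted p = 0.491), and the difference of 0.15 between the genotypes was not called (adjusted p = 0.371). In non-B cells the 4 mock Trp53+/+ samples ranged from 19.5 to 23.5 RPKM and the irradiated ones from 20.4 to 28.8 RPKM, which overlapped.

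*Mad2l2*, the adaptor that joins Rev3l to Rev1 and that also acts at double-strand breaks in class switch recombination, showed its change in Trp53-/- B cells. It lies at chr4:147504493-147519808 on the plus strand. The 2 mock samples held 9.79 and 13.1 RPKM and the 2 irradiated samples 21.3 and 19.9 RPKM, a rise of 1.80-fold with a log2 fold change of 0.84 (SE 0.145, adjusted p = 6.53e-04). In Trp53+/+ B cells *Mad2l2* was at 12.9, 11.2, 11.5 and 11.6 RPKM in mock and 13.7, 14.9, 11.97 and 15.3 RPKM in irradiated samples, which overlapped (log2 fold change 0.23, SE 0.103, adjusted p = 0.0788). The response was lower by 0.61 (log2 difference -0.61, SE 0.178, adjusted p = 0.0333) in Trp53+/+ than in Trp53-/- B cells. This difference lost its call on leaving out any of 5 of the 12 B cell samples, with an adjusted p between 0.0515 and 0.191: mock Trp53-/- replicate 1, either irradiated Trp53-/- replicate, and replicate 1 of mock and of irradiated Trp53+/+ cells. In non-B cells *Mad2l2* was at 8.67 to 11.4 RPKM in mock and 7.41 to 9.93 RPKM in irradiated Trp53+/+ samples, with a log2 fold change of -0.19 (adjusted p = 0.337), and at 0.25 (adjusted p = 0.589) in Trp53-/- cells.

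*Polh* encodes pol eta, the polymerase that copies accurately past ultraviolet-induced thymine dimers. It lies at chr17:46308953-46339574 on the minus strand, and its start is 230 bases from that of *Xpo5*, the exporter of microRNA precursors, which is read in the opposite direction. The stretch between both starts, chr17:46339575-46339803 on the plus strand of mm9 from the side of *Polh* to that of *Xpo5*, is shown because both genes, unlike *Polk* and *Col4a3bp*, were called higher together, in irradiated Trp53-/- B cells. It is 74.2% G and C and holds 1 GC box, in capitals, and no CCAAT box.

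Polh to Xpo5: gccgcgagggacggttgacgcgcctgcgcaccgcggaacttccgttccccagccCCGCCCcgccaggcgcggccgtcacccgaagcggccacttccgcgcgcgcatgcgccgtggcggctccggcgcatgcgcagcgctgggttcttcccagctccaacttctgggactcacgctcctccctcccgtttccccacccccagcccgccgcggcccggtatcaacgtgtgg

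*Polh* did not follow *Polk*. In Trp53+/+ B cells it was at 21.9, 17.0, 18.1 and 15.1 RPKM in mock and 16.2, 14.7, 17.7 and 17.4 RPKM in irradiated samples, which overlapped (log2 fold change -0.11, SE 0.104, adjusted p = 0.384). In Trp53-/- B cells it rose from 17.8 and 17.4 RPKM to 29.0 and 24.9 RPKM, a 1.53-fold change of the mean with a log2 fold change of 0.60 (SE 0.148, adjusted p = 0.00637). *Polh* and *Mad2l2* were thus the 2 of 7 genes called in Trp53-/- B cells, both higher, where 24.3% of all genes tested were called and 13.1% higher. The call of *Polh* sat at the fold threshold. It was lost after median-ratio scaling (0.56) and quantile normalization (0.48), and without replicate 1 of the irradiated Trp53-/- samples (0.49, adjusted p = 0.0645).

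In non-B cells *Polh* fell in Trp53+/+ mice. Mock samples held 24.7, 25.1, 16.9 and 17.1 RPKM and irradiated samples 13.5, 13.1, 11.8 and 13.3 RPKM, without overlap (exact permutation p = 0.0286, 0.0667 adjusted). The log2 fold change was -0.65 (SE 0.132, adjusted p = 0.00773), and *Polh* and *Polk* were the 2 of 7 genes called in irradiated Trp53+/+ non-B cells, where 9.85% of all genes tested were called, 5.74% higher and 4.11% lower. In Trp53-/- non-B cells *Polh* was at 17.1 and 16.5 RPKM in mock and 19.6 and 20.3 RPKM in irradiated samples, a log2 fold change of 0.25 (SE 0.187, adjusted p = 0.579). None of the 7 genes was called there by limma, where 0.442% of all genes were (0.193% higher and 0.250% lower). Of the 7, 1, *Rad18*, had an unadjusted limma p under 0.05 (0.0415), and the share of all genes at that unadjusted level was not counted. The response of *Polh* was lower in Trp53+/+ than in Trp53-/- mice in both cell types, by a log2 difference of -0.71 (SE 0.181, adjusted p = 0.0176) in B cells and -0.89 (SE 0.229, adjusted p = 0.0394) in non-B cells.

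These *Polh* calls rested on few samples. The summed RPKM of 8 dividing-cell markers (*Mki67*, *Top2a*, *Ccnb1*, *Ccna2*, *Cdk1*, *Bub1*, *Aurkb* and *Plk1*, all found and none at 0 throughout a group) was 354 and 330 in replicates 1 and 2 of mock Trp53+/+ non-B cells, the samples with the highest *Polh*, and 101 and 119 in replicates 3 and 4. It was 61.2 to 131 in irradiated Trp53+/+, 90.7 and 220 in mock Trp53-/-, and 98.0 to 127 in irradiated Trp53-/- non-B cells. Of the mock Trp53-/- samples, the one at 220 had the lower *Polh*, 16.5 against 17.1 RPKM. The sum of 6 erythroid markers, found of 7, moved with the dividing-cell sum, from 88.5 to 254 RPKM in mock to 16.1 to 46.9 RPKM in irradiated Trp53+/+ non-B cells, and was 46.4 and 183 RPKM in mock and 54.3 and 63.3 RPKM in irradiated Trp53-/- non-B cells. Without mock Trp53+/+ replicates 1 and 2 the log2 fold change of *Polh* was -0.38 (adjusted p = 0.0279). Without replicate 1 or replicate 2 alone it was -0.56 or -0.55 (adjusted p of 0.0190 and 0.0221). In these fits the fall missed the fold threshold only, and its adjusted p stayed under 0.05. With the share of receptor genes that had reads as a covariate the log2 fold change of *Polh* was -0.58 (adjusted p = 0.108). The genotype difference of *Polh* in B cells lost its call without any of 3 samples, both mock Trp53-/- replicates and irradiated Trp53-/- replicate 1 (adjusted p of 0.0632, 0.0683 and 0.0968). That in non-B cells lost it without any of 9 of the 12 samples (adjusted p between 0.0537 and 0.132).

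**Figure D3:**
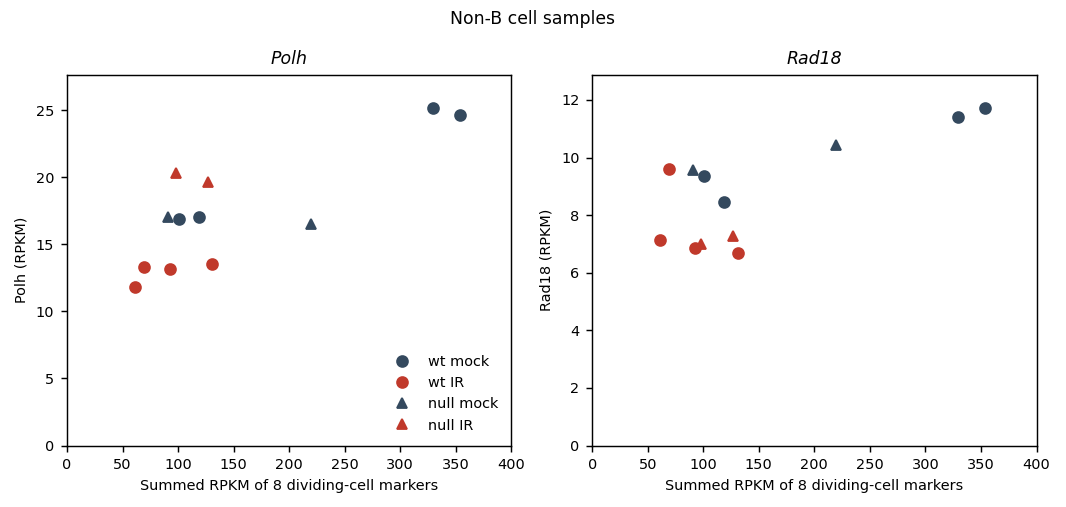
*Polh* (left) and *Rad18* (right) RPKM against the summed RPKM of 8 dividing-cell markers in the 12 non-B cell samples, with axes from 0. Replicates 1 and 2 of mock Trp53+/+ cells, at 354 and 330 summed RPKM, hold the highest levels of both genes.

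*Xpo5*, like *Polh*, was called higher in Trp53-/- B cells. It rose from 22.0 to 34.2 RPKM in Trp53-/- B cells (log2 fold change 0.62, SE 0.0768, adjusted p = 5.48e-05, called), and went from 22.2 ± 0.707 to 25.3 ± 0.516 RPKM in Trp53+/+ B cells (0.18, adjusted p = 0.0142, below the fold threshold), where *Polh* was at -0.11. The level of *Xpo5* was above that of *Polh* in all irradiated B cell samples of Trp53+/+ mice, at 24.97 to 26.1 against 14.7 to 17.7 RPKM. The difference between the genotypes was -0.44 (adjusted p = 0.00722) for *Xpo5* in B cells, beside -0.71 for *Polh*, and -0.53 (adjusted p = 0.0490) in non-B cells, beside -0.89. In Trp53+/+ non-B cells *Xpo5* went from 21.0 ± 0.696 to 17.9 ± 2.02 RPKM and was not called (-0.23, adjusted p = 0.0696).

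*Poli*, which encodes a paralog of pol eta that copies undamaged thymine with many errors, was called in no comparison. Mock Trp53+/+ B cells held 19.1, 18.1, 15.9 and 16.9 RPKM and irradiated ones 17.3, 19.8, 17.1 and 19.98 RPKM (log2 fold change 0.08, SE 0.0855, adjusted p = 0.449). In Trp53+/+ non-B cells it ranged from 13.8 to 19.2 RPKM in mock and from 14.6 to 18.04 RPKM in irradiated samples, and in Trp53-/- cells of either type from 16.7 to 21.5 RPKM. Its groups overlapped within each cell type and genotype apart from mock (16.7 and 17.6 RPKM) and irradiated (17.8 and 21.5 RPKM) Trp53-/- B cells, where the log2 fold change was 0.18 (SE 0.121, adjusted p = 0.255).

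*Rad18*, the ubiquitin ligase at the head of the pathway, at chr6:112569844-112646680, was likewise not called. In B cells it was at 10.0, 9.42, 8.03 and 8.38 RPKM in mock and 9.80, 9.11, 9.05 and 8.25 RPKM in irradiated Trp53+/+ samples, a log2 fold change of 0.02 (SE 0.102, adjusted p = 0.901). In non-B cells the values were lower after IR in both genotypes. Trp53+/+ samples held 11.7, 11.4, 9.37 and 8.47 RPKM in mock and 6.68, 6.85, 7.14 and 9.61 RPKM after IR, and Trp53-/- samples 9.58 and 10.4 RPKM in mock and 7.27 and 6.99 RPKM after IR. The log2 fold changes were -0.41 (SE 0.142, adjusted p = 0.0626) and -0.46 (SE 0.200, adjusted p = 0.292), neither of which passed the test, and they differed by 0.04 (SE 0.245, adjusted p = 0.926). The high *Rad18* mock values were those of the same replicates 1 and 2 with the highest dividing-cell markers, and without them the log2 fold change in Trp53+/+ cells was -0.24 (adjusted p = 0.355).

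**Figure D4:**
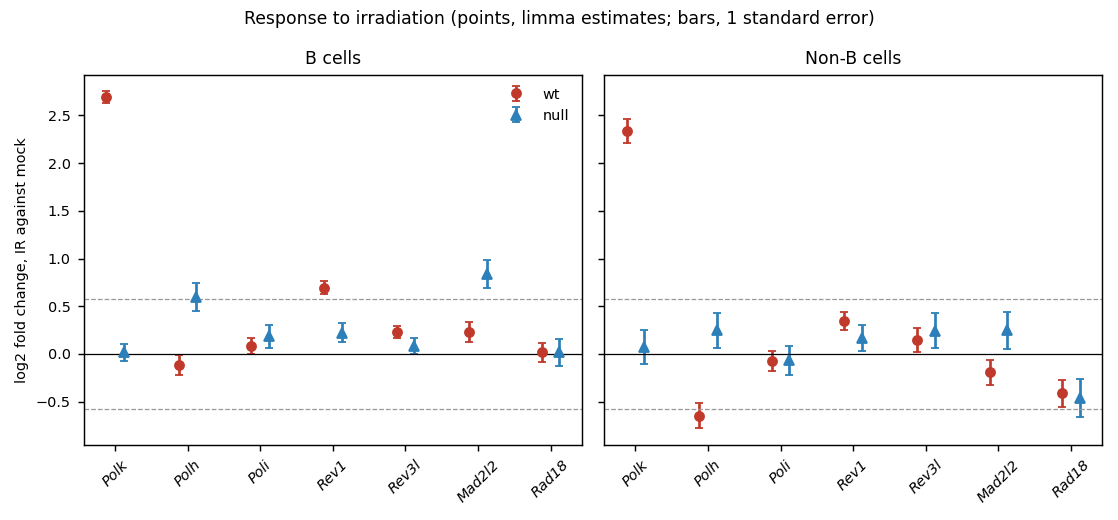
Log2 fold change of each gene, irradiated against mock, in B cells (left) and non-B cells (right), as limma estimates with bars of 1 standard error. Circles are Trp53+/+ and triangles Trp53-/- cells, and dashed lines mark 0.58 in either direction. *Polk* in Trp53+/+ cells stands at 2.69 and 2.34, and *Polh* and *Mad2l2* lie higher in Trp53-/- than in Trp53+/+ cells of both types. For *Mad2l2* in non-B cells this difference was not called (adjusted p = 0.262).

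Before IR, in mock B cells, 3 of the 7 genes had ranges that did not overlap between the genotypes. The share of all genes with such ranges was not counted, so that these 3 are a description and not a result. *Polk* was lower in Trp53-/- cells (7.87 and 7.94 against 8.90 to 9.68 RPKM), and *Rev3l* (23.4 and 24.2 against 20.7 to 22.3 RPKM) and *Rev1* (14.67 and 14.68 against 13.7 to 14.5 RPKM) were higher. The ranges of the other 4 genes in mock B cells, and of all 7 in mock non-B cells, overlapped. No gene of the 7 was called between the unstressed genotypes in either cell type by limma, where 0.0506% (0.0217% higher and 0.0289% lower) and 0.0428% (0.0143% higher and 0.0285% lower) of all genes were. Of the 7, 1, *Polk* in B cells, had an unadjusted limma p under 0.05 (0.0175, log2 difference of -0.20, 7.90 against 9.17 RPKM). The share of all genes at that unadjusted level was not counted. The genotype difference after IR was called for 4 of 7 genes in B cells, *Polk* and *Rev1* with a higher and *Polh* and *Mad2l2* with a lower response in Trp53+/+ cells, beside 18.8% of all genes tested. In non-B cells it was called for 2 of 7, *Polk* higher and *Polh* lower, beside 7.35%.

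B cells and non-B cells were compared within Trp53+/+ mice, to see whether the cell types differ in these genes. None of the 7 was called between the unstressed cell types by limma, against 24.6% of all genes (7.38% higher and 17.2% lower in B cells). *Rev1* had a log2 difference of 0.30 (adjusted p = 0.00953) toward B cells that did not reach the fold threshold. *Polk* had one of 0.21 (unadjusted p = 0.0243, adjusted p = 0.0575), and the share of all genes at an unadjusted p under 0.05 was not counted. The response to IR was higher in B than in non-B cells for *Polk* by 0.35 (SE 0.122, adjusted p = 0.0404), for *Polh* by 0.53 (SE 0.191, adjusted p = 0.0460) and for *Rev1* by 0.35 (SE 0.121, adjusted p = 0.0413). For *Polh* this was not a rise in B cells, since its log2 fold change was -0.11 (not called) there and -0.65 in non-B cells. These 3 of 7 compare with 28.0% of all genes called for that difference, 15.4% higher and 12.6% lower in B cells. The *Polk* difference was -0.03 after quantile normalization, the reverse direction, the *Polh* difference was 0.26 (adjusted p = 0.243) and the *Rev1* difference 0.31 (adjusted p = 0.109) without mock non-B replicates 1 and 2, and leaving out 1 sample at a time gave between 0 and 4 genes called, so that none of these 3 calls held under all settings. *Eif5b*, which overlaps *Rev1*, differed by 0.47 (adjusted p = 0.0165) in the same direction.

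The factors around the polymerases were followed in a list of 28 other genes of DNA damage tolerance, covering PCNA and its ubiquitin enzymes, pol delta, RPA, fork remodellers and further polymerases, all of which were tested. In Trp53+/+ B cells 2 of 28 rose and 3 fell, where 12.5% of all genes were called higher and 12.2% lower. *Smarcal1*, a fork-remodelling helicase, rose by 0.64 and *Poln*, an A-family polymerase, by 0.60 on the log2 scale. *Poln* was low, with means of 1.455 RPKM in mock and 2.48 RPKM in irradiated samples, and barely passed the fold threshold. Its log2 fold change in Trp53-/- B cells was 0.37 (adjusted p = 0.310), and the difference between the genotypes was not called (adjusted p = 0.673). For *Smarcal1* the log2 fold change in Trp53-/- B cells was 0.24 (adjusted p = 0.160). Its difference of 0.40 between the genotypes was not called either (adjusted p = 0.0945). *Pold1*, the catalytic subunit of pol delta, fell by 0.80, the RPA subunit *Rpa3* by 0.78 and *2810417H13Rik*, a PCNA-binding protein, by 0.71. In Trp53+/+ non-B cells, where 5.74% of all genes were called higher and 4.11% lower, none of the 28 rose and 3 fell, *Dtl*, the adaptor of a PCNA-dependent ubiquitin ligase (log2 fold change -1.70), *Pold1* (-1.15) and the pol delta subunit *Pold2* (-1.09). The median log2 fold change of the 28 was -0.12 among B cells and -0.31 among non-B cells, that of the 7 genes was 0.23 and -0.08, and that of all genes tested was 0.01 and -0.03.

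In Trp53-/- B cells 4 of 28 rose and 1 fell, where 13.1% of all genes were called higher and 11.2% lower. The 4 that rose were *Pold2* by 1.27, *Dtl* by 0.89, *Usp1*, which removes ubiquitin from PCNA, by 0.61 and *Atad5*, which unloads PCNA, by 0.60, while *Rchy1*, a ubiquitin ligase, fell by 0.91. *Usp1*, *Atad5* and *Rchy1* were picked out after their values were seen. No gene of the list was called in Trp53-/- non-B cells, where 0.442% of all genes were and the median of the list was -0.02. The genotype difference was called lower in Trp53+/+ cells for 12 of 28 and higher for 2 in B cells, against 10.6% and 8.14% of all genes, and lower for 2, *Pold1* and *Pold2*, and higher for none in non-B cells, against 3.37% and 3.98%. *Polh* and *Mad2l2* thus had the direction of these 12 genes in B cells, and *Polk* and *Rev1* the opposite. The dividing-cell markers summed to 62.1 to 146 RPKM in mock and 48.8 to 67.4 RPKM in irradiated Trp53+/+ B cells, and to 76.1 and 77.0 RPKM in mock and 84.3 and 95.5 RPKM in irradiated Trp53-/- B cells, and their part in these differences was not tested.

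**Figure D5:**
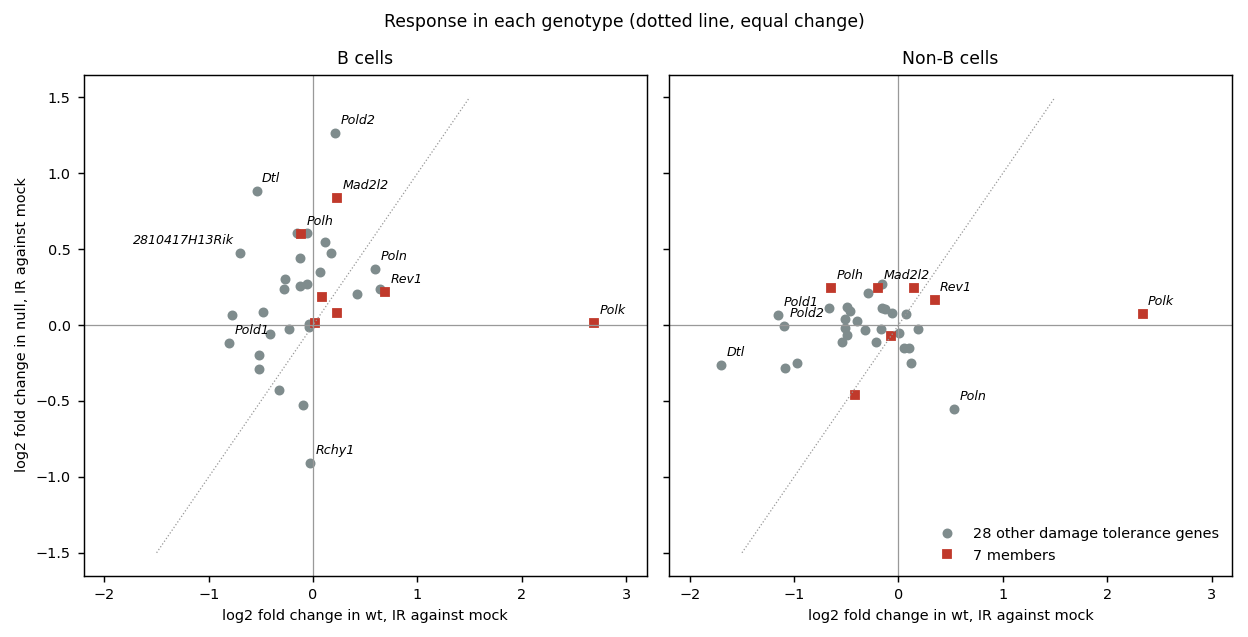
Log2 fold change after IR in Trp53+/+ (horizontal) and Trp53-/- cells (vertical) of the 7 translesion genes (squares) and 28 other damage tolerance genes (circles), in B cells (left) and non-B cells (right). The dotted line marks an equal change in both genotypes. *Polk* lies far to the right at 2.69 and 2.34, and *Polh*, *Mad2l2*, *Dtl* and *Pold2* lie above the line in both cell types. That position is not particular to them. The median difference of the 28 genes, Trp53+/+ minus Trp53-/-, was -0.34 in B and -0.42 in non-B cells. In non-B cells limma did not call the difference for *Mad2l2* (adjusted p = 0.262) or *Dtl* (0.332).

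Over the 24 samples, which include all treatments and both genotypes, the log2 values of *Polk* and *Rev1* had a Pearson r of 0.72, those of *Polh* and *Mad2l2* of 0.65, and those of *Polk* and *Polh* of -0.59. These are descriptions over samples that share groups. Among 14688 genes outside the set, the most similar patterns to *Polk* were those of *Exoc4* and *Cep170b* (r = 0.994 each). They were *Pigf* (0.967) and *Zfp456* (0.964) for *Rev1*, *Nup85* (0.935) and *Nudt19* (0.926) for *Polh*, and *Wbscr22* (0.934) and *Med19* (0.925) for *Mad2l2*. For *Rev3l* it was *Zfp369* (0.920), for *Poli* they were *Glb1* (0.851) and *Ccdc66* (0.848), and for *Rad18* *Ccdc14* (0.831) and *Katnal1* (0.799).

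The promoters were compared in RefSeq windows of GRCm38.p6, each from 250 bases before to 50 bases after a start, of which 5 of the 7 genes had 8. The decamer consensus of p53, searched on both strands, was found in 1 of the 8 windows, the *Polk* window at chr13:96519138-96519437, and in 8.36% of all 32851 windows. That window belongs to a start inside the gene, and the other *Polk* window, chr13:96542530-96542829, which lies farther upstream, did not hold it. A pair of adjoining decamers was in 0 of 8 and in 3 of all windows (0.009%). The search allowed no mismatch and no spacer and found so few pairs anywhere that 0 of 8 tells nothing about p53 sites of these genes. Sequence outside the windows was not searched. The GC box was in 5 of 8 windows and 35.7% of all, and CCAAT, also on both strands, in 1 of 8 and 37.4%. *Rad18* and *Rev3l* also had facing starts nearby, of noncoding genes not analysed here.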

How the data were processed

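Total RNA of 24 samples was depleted of ribosomal RNA and sequenced with a kit that does not mark strand. The authors masked bases of low quality, aligned reads to mm9 with TopHat (TopHat2 2.0.8 in the submitters' processing notes, another release in the study's methods), kept 1 of each set of duplicates, assigned reads to UCSC genes with featureCounts 1.4.5 and deposited RPKM values, scaled to reads on exons, for 21671 genes per sample. Counts were not used here, so that no count model was fitted. The 7 genes, the gene lists and the comparisons were chosen with earlier results of these data known.

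RPKM values were tested with limma 3.58.1 in R 4.3.3 (trend) on log2(RPKM + 0.5), a scale that understates the changes of low genes, in the 12 B cell samples, the 12 non-B cell samples and the 16 Trp53+/+ samples. Genes needed an RPKM above 1 in at least 1 Trp53+/+ sample of the fit. Calls needed an adjusted p under 0.05 over all genes and, for 2 groups, an absolute log2 fold change above 0.58. For differences between responses no fold was required. Single genes were compared by exact permutation in Python 3.11.15 (numpy 2.4.6, pandas 2.3.3, scipy 1.17.1), and plots were drawn with matplotlib 3.10.9. Positions came from GENCODE for mm9, sequences from the mm9 genome, and promoter windows from RefSeq.

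Depth was estimated as the number of reads at which low RPKM values, times exonic length (found for 91.1% of genes), come nearest to whole reads. Between 57.7% and 70.5% of values then lay within 0.1 of a whole read (20% by chance). The 7 genes had from 148 reads (*Mad2l2*) to 3892 reads (*Rev3l*) in a sample by this estimate, which rests on gene models other than those of the authors. The scripts were tested on simulated data.

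Other genes named were those of the damage tolerance list called in irradiated Trp53+/+ cells, genes starting within 1000 bases on the opposite strand, the overlapping gene *Eif5b*, the 2 most correlated genes for each of the 7, of which 1 is not reported here, and *Usp1*, *Atad5* and *Rchy1*, picked after their values were seen. No 2 files were identical, and the closest samples differed in 76.3% of genes. By the deviations from group means, mock and irradiated Trp53+/+ non-B samples of the same number correlated with r of 0.323, 0.156, 0.219 and 0.322. Replicates 2 and 3 correlated more with another number than with their own. In Trp53+/+ B cells r was lower, at 0.015 to 0.087, and only replicate 3 correlated more with another number. The labels do not give a pairing, and these values do not settle it in either cell type. Alternatives were other pseudocounts (0.1 and 1), filters, scalings, thresholds, the replicate block and leaving out each sample, and 4 chosen after seeing the data: the receptor gene covariate, leaving out 2 irradiated samples, leaving out 2 mock samples, and a crossed block.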

Additional observations from a re-analysis of the deposited data

Results flagged for a closer look

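The highest sample stood apart in 2 of 28 groups of 4 samples, both times replicate 4 of irradiated Trp53+/+ non-B cells. Its gap to the next sample was 0.898 of the range for *Poli* (18.04 RPKM, the others 14.6 to 15.0) and 0.844 for *Rad18* (9.61 RPKM, the others 6.68 to 7.14), beyond Dixon's critical value for 4 samples. Chance gives about 1 such group in 20. Both groups of values belong to comparisons that were not called with all samples. Without this replicate *Rad18* was called for the response between cell types (0.55, adjusted p = 0.0209, against 0.43 and 0.0913 with all samples).

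The response to IR differed between the genotypes in B cells for *Polk* (log2 difference 2.68, Trp53+/+ minus Trp53-/-), *Polh* (-0.71), *Rev1* (0.47) and *Mad2l2* (-0.61), and in non-B cells for *Polk* (2.27) and *Polh* (-0.89), each by a test of the difference itself. It differed between Trp53+/+ B and non-B cells for *Polk* (0.35), *Polh* (0.53) and *Rev1* (0.35). Of these 9 differences, those of *Polk* between the genotypes kept their call on leaving out any sample and the other 7 lost it without at least 1 sample.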

How the results depend on the processing

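The rise of *Polk* in Trp53+/+ cells of both types, its difference between the genotypes in both, and the rise of *Rev1* in Trp53+/+ B cells kept their direction and call in every alternative run. Over the 7 genes and 10 comparisons, 756 log2 fold changes kept direction and call, 25 lost a call, 7 gained one and 31 changed sign, and with 1 sample left out these were 791, 58, 6 and 41. No scaling moved the median of all genes by over 0.1. Where no value is given for it, the cause of a change was not tested. RPKM values rather than counts limit precision, since the number of reads behind each is an estimate, and Trp53-/- groups hold 2 samples.

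The count of the 7 genes called in irradiated Trp53-/- B cells went from 2 to 1 with median-ratio scaling or quantile normalization, without *Polh* (0.56 and 0.48). That of the genotype difference in B cells went from 4 to 1 at an adjusted p under 0.01. In irradiated Trp53+/+ non-B cells it went from 2 to 1, again without *Polh*, with the receptor gene covariate (-0.58), without the 2 irradiated samples with most receptor genes (-0.61) and without the 2 mock samples with most dividing-cell markers (-0.38). For the genotype difference in non-B cells it went from 2 to 1 without a filter, at an adjusted p under 0.01, with the covariate and without the 2 irradiated samples (*Polh* adjusted p of 0.0711 without a filter, 0.121 and 0.0826 in the last 2). Between unstressed cell types it went from 0 to 1, *Rev1*, without the fold threshold. For the response between cell types it went from 3 to 1 without a filter, to 0 at an adjusted p under 0.01 and to 1 without the 2 mock samples. Quantile normalization left it at 3 with other members, *Polk* and *Rev1* (0.219, adjusted p = 0.103) losing their calls and *Mad2l2* (0.41, adjusted p = 0.0448) and *Rad18* (0.486, adjusted p = 0.0237) gaining them. Leaving out 1 sample gave 1 to 2 calls in Trp53-/- B cells, 1 to 4 for the genotype difference in B cells, 1 to 2 in Trp53+/+ non-B cells, 1 to 2 for the genotype difference in non-B cells and 0 to 4 for the response between cell types. *Mad2l2* also lost its genotype difference in B cells without a filter (adjusted p = 0.065) and with quantile normalization (0.0885).

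With the replicate block, no call of the 7 genes changed in non-B cells. In B cells, where samples of the same number correlated only weakly, *Mad2l2* lost its genotype difference (adjusted p = 0.0522), and between cell types it gained one (0.0470). Over all genes the block moved the calls in Trp53-/- non-B cells from 62 to 17 and those between unstressed non-B cells from 6 to 11. Mock and irradiated Trp53-/- non-B samples of the same number deviated in opposite directions (r of -0.253). With crossed numbers the calls were 1709 in Trp53+/+ and 152 in Trp53-/- non-B cells and 1415 for the genotype difference. Every sign change concerned a value that was not called, apart from *Polk* between cell types. Under the block, crossed or not, the genotype difference of mock non-B cells became 0.0914 for *Polk* and -0.0774 for *Mad2l2*.

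Quantile normalization reversed *Rev3l* in Trp53-/- B cells (-0.0385), *Rad18* in the genotype difference of B cells (-0.0117), *Poli* (0.0596), *Rev3l* (0.0016) and *Rad18* (-0.0268) in that of non-B cells, *Polk* (0.0178) and *Rad18* (0.0241) between mock non-B cells of the 2 genotypes, *Rad18* between unstressed cell types (0.0288), and *Polk* (-0.0304) and *Rev3l* (-0.0118) in the response between cell types. Median-ratio scaling reversed *Polk* (-0.0185) and *Rad18* (-0.0196) in Trp53-/- B cells and *Mad2l2* between mock non-B cells (-0.0183). The covariate reversed *Polh* (0.0308) and *Rad18* (-0.0534) in Trp53+/+ B cells, *Rad18* in the genotype difference of B (-0.0600) and non-B cells (-0.0482) and *Rev3l* in Trp53+/+ non-B cells (-0.0704). Without the 2 irradiated samples *Rad18* was reversed in Trp53+/+ B cells (-0.0438) and in the genotype difference of B (-0.0585) and non-B cells (-0.0925), and *Rev3l* in Trp53+/+ non-B cells (-0.0537). Without the 2 mock samples *Rad18* was reversed between mock non-B cells (0.1569), and *Polh* (0.0727), *Poli* (-0.0564), *Rev3l* (-0.1045) and *Rad18* (0.0024) between unstressed cell types.

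Signs also changed with 1 sample left out. In Trp53+/+ B cells *Rad18* ranged from -0.0312 to 0.0695. In Trp53-/- B cells *Polk* ranged from -0.0237 to 0.0543 and *Rad18* from -0.1427 to 0.1722, and in Trp53-/- non-B cells *Polk* from -0.1772 to 0.3218. The genotype difference of B cells ranged from -0.2353 to 0.0297 for *Poli* and from -0.1552 to 0.1598 for *Rad18*. That of non-B cells ranged from -0.0869 to 0.0663 for *Poli*, from -0.2923 to 0.0928 for *Rev3l* and from -0.0682 to 0.1107 for *Rad18*. Between mock B cells of the genotypes *Polh* ranged from -0.0981 to 0.0737, *Poli* from -0.0677 to 0.0179 and *Mad2l2* from -0.2579 to 0.1412. Between mock non-B cells *Polk* ranged from -0.2665 to 0.2324, *Rev3l* from -0.0309 to 0.3543, *Mad2l2* from -0.1265 to 0.147 and *Rad18* from -0.1046 to 0.0438, and *Rev3l* between unstressed cell types from -0.0466 to 0.0417.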
